A study of Mus musculus with 4 samples.

Results

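Troponin is the calcium switch of striated muscle. The 5 genes of its cardiac and slow skeletal forms, followed here in mouse hearts at birth, are Tnnc1, Tnni1, Tnni3, Tnnt1 and Tnnt2. They were taken by name, 5 of the 43346 gene identifiers in each count file, and all 5 passed the filter on low counts that left 16009 genes for testing. The hearts were collected on postnatal day 0. The wild type group held 2 libraries from mice of the ICR background, and the MRTFA/B double knockout group held 2 libraries from mice of a mixed background, so genotype and background cannot be told apart. The labels name no allele, Cre driver or breeding scheme and give no further treatment. Separate animals are not named as the source of the libraries within a group, so the p-values measure library-to-library spread, which may be technical.

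The troponin complex sits along the actin filament together with tropomyosin. Troponin C binds calcium, troponin I holds back the actin-myosin interaction until calcium arrives, and troponin T ties the complex to tropomyosin. The heart and slow skeletal muscle share 1 troponin C gene, Tnnc1. Troponin I changes its gene in the heart around birth: the slow skeletal form, Tnni1, is the fetal form, and the cardiac form, Tnni3, is the adult form. Tnni3 carries an amino-terminal extension that protein kinase A phosphorylates. Troponin T of the heart comes mainly from Tnnt2, and Tnnt1 encodes the slow skeletal form. MRTFA and MRTFB are coactivators of serum response factor (SRF), which binds the CArG box in many actin and contractile genes.

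Total counts ran from 16175259 in double knockout library 2 to 29460641 in wild type library 1. Levels are CPM (read counts scaled to a common library size) after TMM scaling, and 3 counts correspond to between 0.106 and 0.184 CPM. Across genes, log CPM correlated at 0.990 between the wild type libraries and at 0.974 between those of double knockout; genes are not independent replicates. Library pairs within a group differed by more than sampling noise (chi-square per gene 16.3 and 38.3). Mrtfa had 9.06 and 11.1 CPM in wild type hearts, against 3.35 and 2.26 CPM in double knockout hearts (log2 fold change -1.82, SE 0.26; edgeR adjusted p = 0.120; DESeq2 adjusted p = 1.25e-05). Mrtfb had 46.9 and 56.8 CPM in the wild type pair and 46.0 and 49.6 CPM in the double knockout pair, and counts over a whole gene cannot check a deletion of part of it.

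The 5 genes lie in 3 places of the mouse genome (mm10). Tnnc1 (ENSMUSG00000091898) lies on chromosome 14, 31208312 to 31211729, on the plus strand. Tnni1 (ENSMUSG00000026418, 135779434 to 135810989) and Tnnt2 (ENSMUSG00000026414, 135836354 to 135852260) lie 25365 bases apart on the plus strand of chromosome 1. Tnnt1 (ENSMUSG00000064179, 4504570 to 4516382) and Tnni3 (ENSMUSG00000035458, 4518305 to 4524229) lie 1923 bases apart on the minus strand of chromosome 7. Each pair thus joins a troponin I gene with a troponin T gene. The coding sequences of the principal transcripts in GENCODE M21 encode 161 residues for Tnnc1, 187 for Tnni1, 211 for Tnni3, 261 for Tnnt1 and 302 for Tnnt2. Tnni1 and Tnni3 matched each other at 71.8% identity over 348 bases of transcript, and the closest match of any member to another gene was 78.9% over 227 bases, between Tnni1 and the fast skeletal Tnni2. Tnnt2 and the fast skeletal Tnnt3 matched at 72.0% over 497 bases.

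The 120 bases before the start site are shown for each gene because the knocked-out genes encode coactivators of SRF, whose CArG box is one of the motifs searched there. They come from RefSeq (GRCm38.p6), 5′ to 3′ on the gene's strand, and capitals mark matches to the MCAT and TATA motifs. The RefSeq starts used for Tnni1, Tnni3 and Tnnt1 lie inside the gene spans given above.
Tnnc1, chr14:31208192-31208311, plus strand: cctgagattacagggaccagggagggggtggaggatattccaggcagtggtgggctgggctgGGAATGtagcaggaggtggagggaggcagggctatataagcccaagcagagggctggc
Tnni1, chr1:135799301-135799420, plus strand: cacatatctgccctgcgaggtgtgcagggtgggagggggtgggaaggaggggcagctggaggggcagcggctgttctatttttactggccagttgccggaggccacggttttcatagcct
Tnni3, chr7:4522529-4522648, minus strand: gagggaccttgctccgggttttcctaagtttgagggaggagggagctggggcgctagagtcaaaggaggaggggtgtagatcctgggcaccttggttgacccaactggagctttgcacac
Tnnt1, chr7:4515976-4516095, minus strand: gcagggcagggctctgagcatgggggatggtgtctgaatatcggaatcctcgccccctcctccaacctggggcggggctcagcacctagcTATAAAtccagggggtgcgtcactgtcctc
Tnnt2, chr1:135836214-135836333, plus strand: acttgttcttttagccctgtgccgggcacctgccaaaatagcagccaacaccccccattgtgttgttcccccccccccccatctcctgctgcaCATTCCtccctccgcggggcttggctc
Of the 5 genes, 0 had a CArG box in the 250 bases before any of their RefSeq starts, on either strand, and 1.47% of 32851 such windows held one. The MCAT motif CATTCC, searched on both strands, stood in the windows of Tnnc1 (as GGAATG) and Tnnt2, and 12.6% of windows held it. Tnnt1 had the TATA motif TATAAA, searched on the gene's strand, which 7.59% of windows held. The MEF2 site (2.92% of windows, both strands) was found in 0 of the 5. The GATA motifs AGATAA and TGATAA (16.6% of windows, both strands) matched in Tnnt2 alone, 161 to 166 bases before the start. The E-box CANNTG stood before each of the 5 and in 66.2% of windows. A match describes letters and is no measured binding, and a missing match says only that these letters are not in this window.

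Per kilobase of annotated exon, troponin transcripts ranked among the most abundant of the heart. Among 15922 tested genes with an annotated length, Tnnc1 held rank 12 to 15 in the 4 libraries, Tnnt2 rank 17 to 24, Tnni3 rank 23 to 29 and Tnni1 rank 53 to 75. Tnnt1 lay far below, at rank 1793 to 3252. Per kilobase of principal transcript, Tnnt2 came first in each library, at 6307 to 7276 CPM per kilobase, followed by Tnnc1 at 2268 to 2656, Tnni3 at 1639 to 1971, Tnni1 at 869 to 1105 and Tnnt1 at 28.9 to 47.3. These ranges do not overlap between neighbours in the order, but with the exon union as the length Tnnc1 stood above Tnnt2, so the order of those 2 genes depends on the length used. The reads behind the values numbered 485 to 1378 a library for Tnnt1 and 16334 to 247577 for the other members. The 5 genes together held 1.22% and 1.24% of the counts in the wild type libraries and 1.41% and 1.19% in the double knockout libraries. That share was highest in double knockout library 1 and lowest in library 2, so the groups overlapped.

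None of the 5 genes passed the threshold between genotypes. edgeR's quasi-likelihood test with Benjamini-Hochberg adjustment called 0 of 5 at an adjusted p under 0.05, against 0.075% of all tested genes (0.0125% called higher and 0.0625% called lower). At an unadjusted p under 0.05 it was also 0 of 5, against 17.3% of all tested genes, and DESeq2 called 0 of 5, against 3.93%. The members' median log2 fold change was -0.0851, with 4 lower and 1 higher, and the median of all tested genes was 0.0097. Among the 78 tested genes with a mean of at least 1000 CPM, 53.8% had a log2 fold change within 0.25 of 0, and so had each of the 4 members at that level (Tnnc1, Tnni1, Tnni3 and Tnnt2).

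**Figure D1:**
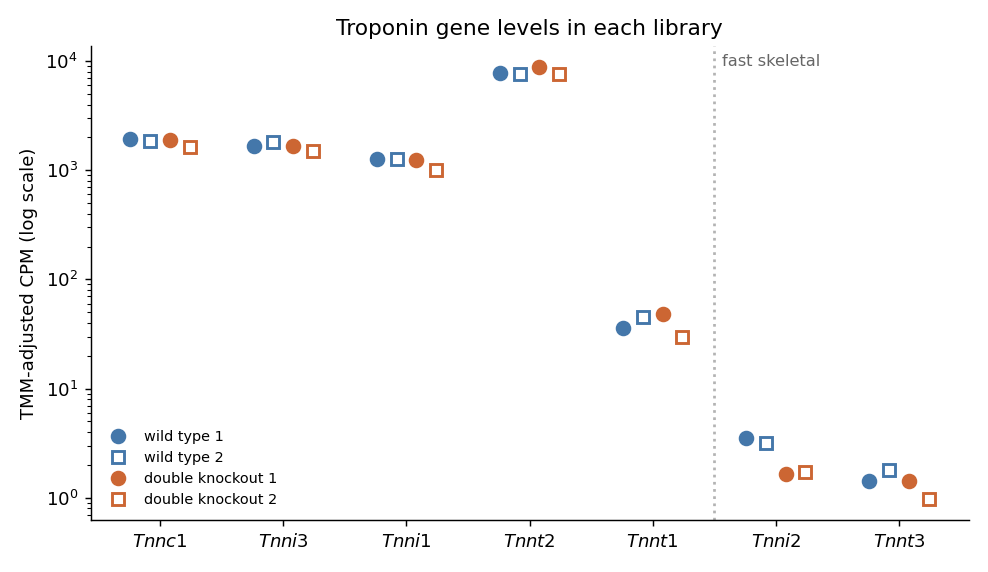
TMM-adjusted CPM (log scale) of the 5 troponin genes and, right of the dotted line, the fast skeletal Tnni2 and Tnnt3, in each of the 4 libraries. Tnnt2 sits between 7569 and 8731 CPM and Tnnt1 between 29.7 and 48.6 CPM, with wild type and double knockout points intermixed, while Tnni2 is lower in both double knockout libraries.

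Tnnc1, the calcium-binding subunit, had 1915 and 1843 CPM in wild type libraries 1 and 2 and 1908 and 1635 CPM in double knockout libraries 1 and 2. Double knockout library 1 lay inside the wild type range and library 2 below it. The fold was 0.943 with a 95% interval of 0.754 to 1.18 (log2 fold change -0.085, SE 0.13; edgeR adjusted p = 0.779).

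Of the troponin I genes, which encode the inhibitory subunit, the cardiac form Tnni3 had 1674 and 1798 CPM in the wild type pair and 1679 and 1494 CPM in the double knockout pair. Again double knockout library 1 lay within the wild type values and library 2 below them. Its fold was 0.914 (95% interval 0.737 to 1.13; log2 fold change -0.13, SE 0.13; edgeR adjusted p = 0.639). The fetal form Tnni1 had 1271 and 1256 CPM in the wild type pair and 1233 and 999.3 CPM in the double knockout pair. Tnni1 was the member whose groups did not overlap, with both double knockout libraries below both wild type libraries, an ordering that 25.2% of all tested genes shared. The gap between wild type library 2 and double knockout library 1 was small beside the gap between the double knockout libraries. Its fold was 0.884 (95% interval 0.694 to 1.13; log2 fold change -0.18, SE 0.14; edgeR adjusted p = 0.558).

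Of the troponin T genes, which encode the tropomyosin-binding subunit, the cardiac form Tnnt2 had 7774 and 7602 CPM in the wild type pair and 8731 and 7569 CPM in the double knockout pair. Tnnt2 was the member with a positive fold, 1.06 (95% interval 0.846 to 1.33; log2 fold change 0.084, SE 0.13; edgeR adjusted p = 0.782), and double knockout library 2 lay just below both wild type libraries. The slow form Tnnt1 had 36.2 and 45.5 CPM in the wild type pair and 48.6 and 29.7 CPM in the double knockout pair. Here the double knockout libraries held both the highest and the lowest value. Its fold was 0.962 with the widest interval of the members, 0.616 to 1.5 (log2 fold change -0.055, SE 0.26; edgeR adjusted p = 0.933). The files count whole genes, so the alternatively spliced forms of Tnnt2, which has 15 annotated transcripts, were not measured.

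The double knockout libraries differed from each other more than the wild type libraries did. Library 2 held 0.857 of the library 1 level for Tnnc1, 0.811 for Tnni1, 0.890 for Tnni3, 0.867 for Tnnt2 and 0.611 for Tnnt1. In the wild type pair the same ratio lay between 0.962 (Tnnc1) and 1.07 (Tnni3) for the 4 abundant members and was 1.26 for Tnnt1. Leaving out double knockout library 1 gave log2 fold changes of -0.34 for Tnni1 (edgeR adjusted p = 0.110) and -0.46 for Tnnt1 (adjusted p = 0.0684), in a fit that called 2795 genes. Without library 2 they were -0.037 and 0.25, in a fit that called 1364 genes. Tnnc1 was at 0.02 without library 2 and Tnnt2 at -0.024 without library 1, so their direction, like that of Tnnt1, turned with 1 library. With each library left out in turn, 0 of the 5 genes passed the threshold. Such a fit assumes that a lone library varies as the other group does.

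**Figure D2:**
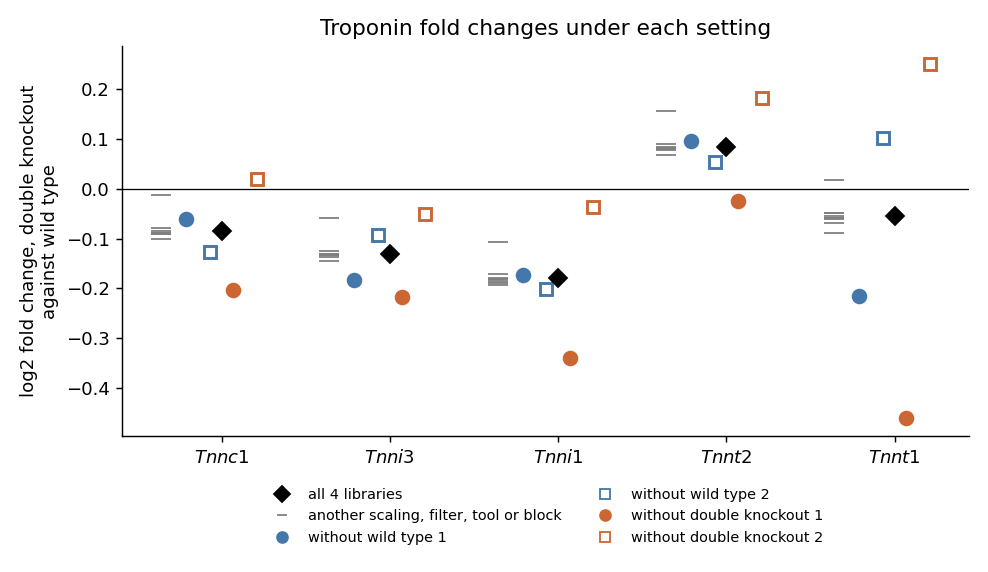
Log2 fold change of the 5 genes, double knockout against wild type, with all 4 libraries (diamonds), under another scaling, filter, tool or replicate block (dashes) and with 1 library left out (circles and squares). The values without double knockout library 1 are the lowest for each gene, down to -0.46 for Tnnt1, and those without library 2 the highest, up to 0.25.

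The 8 cardiomyocyte markers were all detected, with summed levels of 35377 and 35496 CPM in wild type, against 31959 and 29639 CPM in double knockout. Of the 8, 7 were below 0 in fold change (median -0.23), where 48.7% of all tested genes were negative. In 6 both double knockout values were below both wild type values, against 25.2% of all tested genes. In 1 both were above, against 25.8%. edgeR called 0, against 0.075% of all tested genes, and DESeq2 called 0, against 3.93%. At an unadjusted p under 0.05 edgeR also had 0, against 17.3%. Ttn, the giant sarcomeric protein titin, was at 9727, 8738, 7514 and 7421 CPM in the 4 libraries. The summed level, like each of the 5 troponin genes, was lowest in double knockout library 2. CPM is relative, so a smaller share of cardiomyocytes and less RNA per cardiomyocyte cannot be told apart in these whole hearts. Neither was shown, and the part of either in the troponin values was not tested.

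The slow and cardiac troponin I genes were read in nearly the same proportion in every library. Tnni1 held 43.2% (95% Wilson interval 42.8 to 43.5) and 41.1% (40.8 to 41.5) of the Tnni1 and Tnni3 reads in wild type libraries 1 and 2. In double knockout libraries 1 and 2 it held 42.3% (42.0 to 42.7) and 40.1% (39.6 to 40.6). The intervals cover counting error only, and the libraries of each group differed by more than that. Wild type library 1 had the highest share and double knockout library 2 the lowest, and double knockout library 1 lay between the wild type libraries.

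Per kilobase of principal transcript, the Tnni1 to Tnni3 ratio was 0.602 and 0.554 in wild type and 0.582 and 0.530 in double knockout. The mean was 0.578 ± 0.0339 and 0.556 ± 0.0368 (SD, n = 2 each). With the union of all annotated exons as the length, the ratio was 0.435, 0.40, 0.421 and 0.383 in the same order. Cardiac troponin I transcripts were the more abundant form per length in each library at birth. The difference between genotypes was -0.055 on the log2 scale (two-sided exact permutation p = 0.667, also 0.667 adjusted over the 8 ratios computed), less than the gaps of 0.12 within wild type and 0.135 within double knockout. With 1 library left out it ran from -0.123 to 0.0124. With 2 libraries against 2, the smallest p this test allows is 0.333.

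The slow form made up a small part of troponin T. Tnnt1 held 0.463% (95% Wilson interval 0.436 to 0.493) and 0.594% (0.561 to 0.630) of the Tnnt1 and Tnnt2 reads in wild type, and 0.553% (0.525 to 0.583) and 0.391% (0.357 to 0.427) in double knockout. Double knockout library 2 had the lowest share and wild type library 2 the highest. Per kilobase of principal transcript the Tnnt1 to Tnnt2 ratio was 0.00544 and 0.00699 in wild type and 0.00650 and 0.00458 in double knockout. With the exon union, which is long for Tnnt2 (7752 bases against 1200 in its principal transcript), it was 0.0164, 0.0210, 0.0196 and 0.0138. The genotypes differed by -0.18 on the log2 scale (two-sided exact permutation p = 0.667, adjusted 0.667), while the gap was 0.361 within wild type and 0.506 within double knockout. With 1 library left out the difference ran from -0.428 to 0.0772. The choice of length moves each ratio by the same factor in all libraries and leaves the difference between genotypes as it is.

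**Figure D3:**
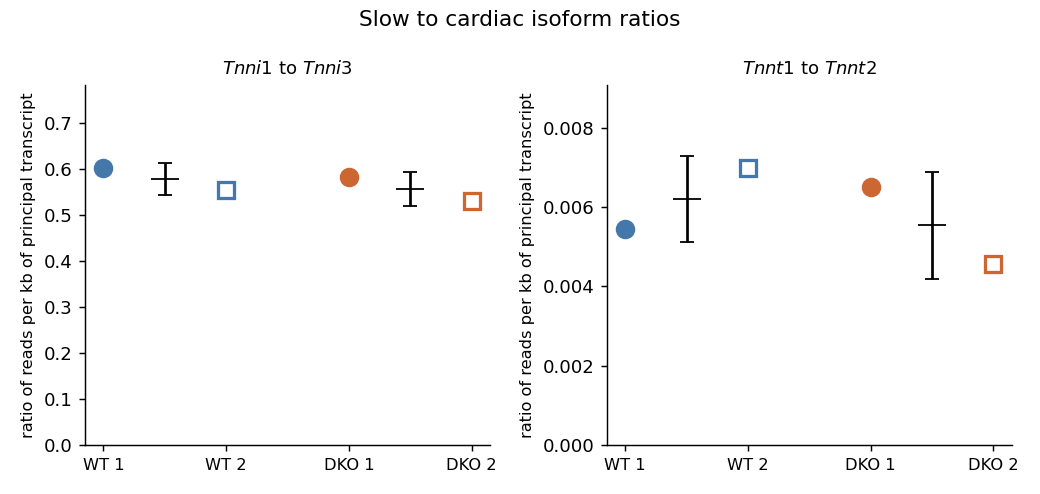
Ratio of reads per kilobase of principal transcript for Tnni1 to Tnni3 (left) and Tnnt1 to Tnnt2 (right) in each library, with the mean and SD of each group in black (n = 2). The Tnni1 to Tnni3 ratio lies between 0.530 and 0.602 and the Tnnt1 to Tnnt2 ratio between 0.00458 and 0.00699, and in both panels the groups overlap.

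Subunits of the complex are assembled in equal numbers, and their transcripts can be set against each other per kilobase of principal transcript. The level of Tnnc1 was 2656 and 2557 CPM per kilobase in wild type and 2647 and 2268 in double knockout. Tnni1 and Tnni3 together came to 1.11 and 1.20 times Tnnc1 in wild type and 1.1 and 1.11 times in double knockout. This ratio was added after the data were seen. At this length both double knockout values were below both wild type values, and the genotypes differed by -0.062 on the log2 scale. The two-sided exact permutation p was 0.333, the smallest possible (0.444 adjusted over the 8 ratios). The difference was smaller than the gap of 0.114 within wild type. With 1 library left out it ran from -0.119 to -0.00506. With the exon union as the length the groups overlapped (two-sided exact permutation p = 0.667). Troponin T transcripts, Tnnt1 and Tnnt2 together, came to 2.45 and 2.5 times Tnnc1 in wild type and to 2.77 and 2.79 times in double knockout. With the exon union as the length these were 0.554, 0.566, 0.626 and 0.630 times, so the size of the ratio depends on the length used and its difference between genotypes does not.

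The troponin T to troponin C ratio was chosen after its values were seen. It was higher in both double knockout libraries, 1.12-fold on average (0.17 on the log2 scale), with gaps of 0.0254 within wild type and 0.0141 within double knockout. Without any 1 library the difference lay between 0.156 and 0.182. The two-sided exact permutation p was 0.333, the smallest that 2 libraries against 2 allow, and 0.444 after Benjamini-Hochberg adjustment over 8 ratios. The difference was larger than both within-group gaps. Because the ratio was chosen with its values known, neither this separation nor the p is support for a change. Among single genes, 25.8% of those tested had both double knockout values above both wild type values. The share for ratios between genes was not computed.

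**Figure D4:**
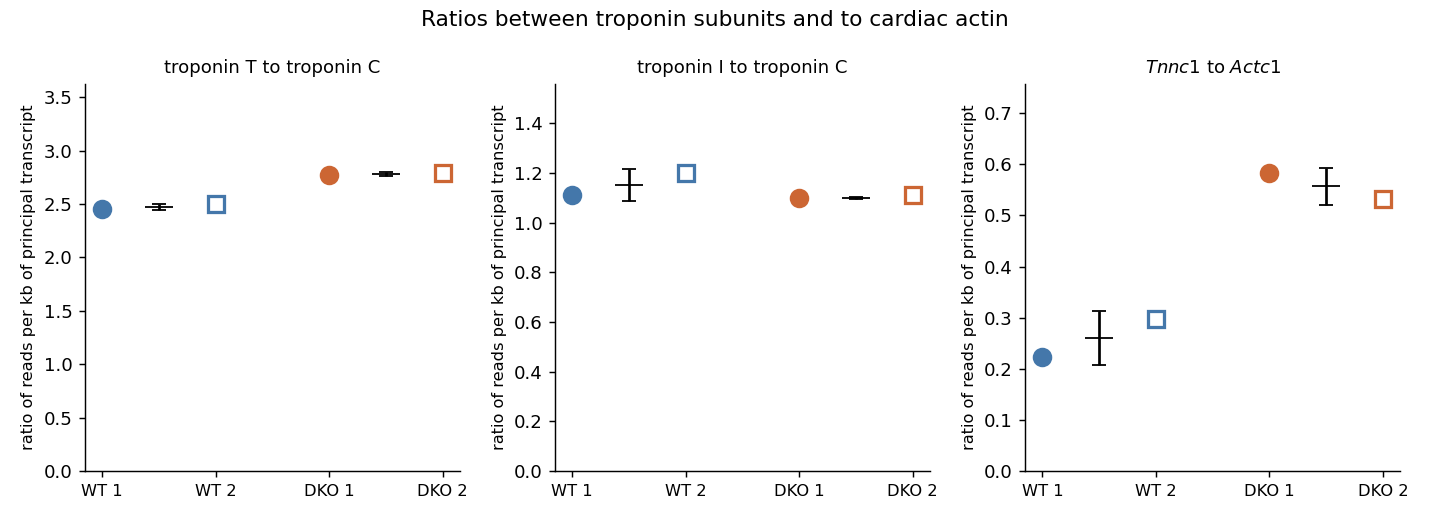
Ratio of reads per kilobase of principal transcript in each library, with the mean and SD of each group in black (n = 2): troponin T genes to Tnnc1, troponin I genes to Tnnc1, and Tnnc1 to cardiac actin, Actc1. Troponin T to troponin C is 2.45 and 2.5 in wild type and 2.77 and 2.79 in double knockout, and Tnnc1 to Actc1 is 0.223 and 0.298 against 0.583 and 0.532.

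The summed level of the 5 genes, per kilobase of exon union, was 4024 and 3992 CPM in wild type, against 4138 and 3562 CPM in double knockout. The double knockout libraries lay on either side of the wild type pair. The fold was 0.958 (two-sided exact permutation p = 1.0).

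Other genes of the thin and thick filaments spread more widely. The list of 22 partners was all tested; 10 lay above and 12 below 0 in log2 fold change (median -0.22). edgeR called 0 of the 22 over all genes, and at an unadjusted p under 0.05 there were 3 higher and 5 lower, against 17.3% of all tested genes. DESeq2, which called 3.93% of all genes, called 2 higher, the tropomyosin Tpm3 and the Z-disc protein Tcap, and 3 lower, the sarcomeric actins Actc1 and Acta1 and the tropomyosin Tpm2; these were named after their values were seen. In 6 of the 22 both double knockout values exceeded both wild type values, against 25.8% of all tested genes, and in 11 both were lower, against 25.2%.

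Actc1, the cardiac alpha-actin of the thin filament, had 17537 and 12642 CPM in the wild type pair and 6688 and 6283 CPM in the double knockout pair (log2 fold change -1.22, SE 0.19; edgeR adjusted p = 0.121; DESeq2 adjusted p = 1.11e-06). The muscle actin genes are nearly identical in their coding parts, so the split of reads among them is uncertain. Myh6, the adult cardiac myosin heavy chain, had 16361 and 17163 CPM in the wild type pair and 14825 and 12968 CPM in the double knockout pair (log2 fold change -0.27, SE 0.13; edgeR adjusted p = 0.364). Tpm1, the main cardiac tropomyosin to which troponin T binds, was at 5671, 5129, 4408 and 3507 CPM in the 4 libraries (log2 fold change -0.45, SE 0.16; edgeR adjusted p = 0.239). It was named after its values were seen.

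The ratios of troponin to actin and tropomyosin transcripts were higher in both double knockout libraries. Per kilobase of principal transcript, Tnnc1 was at 0.223 and 0.298 of Actc1 in wild type and at 0.583 and 0.532 in double knockout. The same ratio for Tnnt2 was 0.544 and 0.738, then 1.6 and 1.48, and for Tnni3 0.154 and 0.230, then 0.405 and 0.384. The ratio of Tnnt2 to Tpm1 was 2.17 and 2.34 in wild type and 3.13 and 3.41 in double knockout. Each of these 4 ratios was higher in both double knockout libraries, by 2.16-fold for Tnnc1, 2.43-fold for Tnnt2 and 2.10-fold for Tnni3 against Actc1 and by 1.45-fold for Tnnt2 against Tpm1. The two-sided exact permutation p was 0.333 for each, the smallest possible (0.444 adjusted over the 8 ratios). These ratios were chosen with the lower Actc1 and Tpm1 levels known. Their separation could thus be foreseen, and the 4 tests add no result about troponin to those levels.

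**Figure D5:**
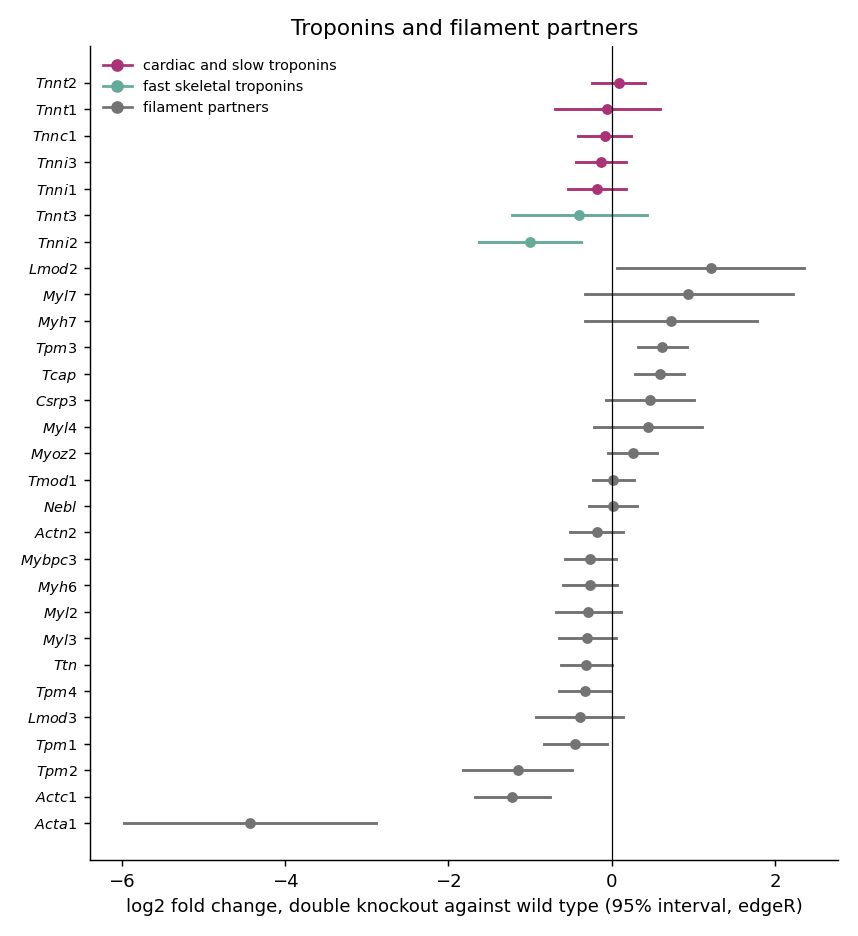
Log2 fold change, double knockout against wild type, with its 95% interval from edgeR, for the 5 cardiac and slow troponins, the 2 tested fast skeletal troponins and the 22 filament partners. The 5 troponin values lie between -0.18 and 0.084 and their intervals cover 0, while Actc1 is at -1.22 and Acta1 at -4.43.

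The fast skeletal troponins were low. Tnni2, the fast troponin I, had 101 and 79 reads in wild type and 47 and 28 reads in double knockout, or 3.56, 3.18, 1.66 and 1.71 CPM. Both double knockout libraries lay below both wild type libraries (log2 fold change -1.0, SE 0.25; edgeR adjusted p = 0.167; DESeq2 adjusted p = 0.185). With no filter on low counts its adjusted p was 0.0431, a setting in which edgeR called 1514 genes. Tnnt3, the fast troponin T, had 1.41 and 1.81 CPM in the wild type pair and 1.41 and 0.979 CPM in the double knockout pair (log2 fold change -0.40, SE 0.34; edgeR adjusted p = 0.587). Tnnc2, the fast troponin C, had 1, 0, 1 and 1 reads and was not tested.

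Markers of skeletal muscle, which shares Tnnc1, Tnni1 and Tnnt1 with the heart, were low. Of 21 such genes, which include the fast troponins, Myod1, Myf6 and Pax7 had 0 counts in all 4 libraries and 9 were tested. Their summed level was 40.2 and 50.6 CPM in wild type, against 59.7 and 62.0 CPM in double knockout. The 5 troponin genes summed to 12670 and 12544 CPM, then 13600 and 11727 CPM, in the same libraries. Tnnt1 alone was at 36.2, 45.5, 48.6 and 29.7 CPM, below the marker sum in each library. The marker with the highest mean, the myosin light chain Myl1, was at 12.7, 23.5, 41.4 and 35.6 CPM. Mybpc2, a fast myosin-binding protein, was at 13.0, 9.81, 7.76 and 12.9 CPM. DESeq2 gave an adjusted p for all but 3 of the 9 and called Myl1 higher, against 3.93% of all genes. edgeR called 0, with 2 higher and 2 lower at an unadjusted p under 0.05, against 17.3% of all tested genes. Of the 9, 2 were positive and 7 negative, with a median of -0.35 that ran from -0.579 (wild type library 1 left out) to -0.112 (double knockout library 1 left out). The part of skeletal muscle RNA in the Tnnt1 values was not tested.

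The 13 atrial genes summed to 855 and 1315 CPM in wild type, against 1959 and 1728 CPM in double knockout, with 12 of 13 positive and a median of 0.99, where 48.7% of all tested genes were negative. edgeR called 0 of them, 5 were higher at an unadjusted p under 0.05 (17.3% of all tested genes in either direction), and DESeq2 called 4 higher (3.93% of all genes in either direction). These were Nppa, Bmp10, Kcnj3 and Stard10, of which Bmp10, Kcnj3 and Stard10 were named after their values were seen. Nppa, which encodes atrial natriuretic peptide, was at 237 and 221 CPM and then 480.3 and 432 CPM. Myl4, the atrial and fetal light chain of myosin, was at 292, 459.8, 588 and 433 CPM in the 4 libraries. The 11 conduction system genes summed to between 117.5 and 171.9 CPM, with a median of 0.23 (-0.0631 to 0.548 with 1 library left out), 0 called by edgeR or, among all but 2, by DESeq2 and 1 higher at an unadjusted p under 0.05. Of these, Cacna1g, a T-type calcium channel, was at 47.4, 72.3, 82.3 and 57.5 CPM and Smoc2 at 24.0, 24.1, 22.3 and 20.7 CPM. The part of either in the troponin values was not tested.

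Outside the troponins, genes that switch from a fetal to an adult partner around birth were listed by partner. Among the fetal partners 5 of 9 tested were positive (median 0.0044, and -0.16 to 0.147 with 1 library left out). Among the adult partners 8 of 10 were negative (median -0.29), where 48.7% of all tested genes were negative. Both double knockout values were below both wild type values in 3 fetal and 7 adult partners, against 25.2% of all tested genes. Both were above in 1 fetal and 0 adult partners, against 25.8%. edgeR called 0 of each, with 2 fetal and 3 adult partners lower at an unadjusted p under 0.05, against 17.3% of all tested genes in either direction. DESeq2, which called 3.93% of all genes, called 1 fetal partner lower, Acta1, and 2 adult partners lower, Actc1 and the muscle creatine kinase Ckm, which was named after its values were seen. Myh7, the fetal myosin heavy chain, had 3557 and 1930 CPM in the wild type pair and 3298 and 5775 CPM in the double knockout pair (log2 fold change 0.73, SE 0.40; edgeR adjusted p = 0.427), so the wild type libraries already differed widely. The level of the fetal troponin I gene Tnni1, by comparison, lay between 999.3 and 1271 CPM over the same libraries.

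Genes that act on troponin or on its genes had 0 edgeR calls and 0 DESeq2 calls in each of the 4 lists below (1 kinase gene had no DESeq2 adjusted p). The counts at an unadjusted p under 0.05 stand against 17.3% of all tested genes in either direction. Of 18 kinase and phosphatase genes, 8 were positive and 10 negative, with a median of -0.08 and with 1 higher and 2 lower at an unadjusted p under 0.05. Prkar1a, a regulatory subunit of protein kinase A, had 1070 and 1013 CPM in the wild type pair and 968.7 and 968.2 CPM in the double knockout pair, and Ppp1cb, a catalytic subunit of protein phosphatase 1, was at 1075, 904, 824 and 921 CPM in the 4 libraries. Of 9 splicing regulators, 7 were positive, with a median of 0.14 and 3 higher at an unadjusted p under 0.05. Rbm20, which regulates titin splicing, was at 549 and 491 CPM and then 539 and 603 CPM (log2 fold change 0.14, SE 0.13; edgeR adjusted p = 0.623). Rbm24, a muscle splicing factor, was at 383 and 399 CPM and then 484 and 494.7 CPM (log2 fold change 0.32, SE 0.11; edgeR adjusted p = 0.225). Of 12 transcription factors of contractile genes, 7 were negative, with a median of -0.13 and 1 lower at an unadjusted p under 0.05. Mef2a, a factor that binds the MEF2 site, was at 774 and 791 CPM and then 979 and 804 CPM, and the T-box factor Tbx20 was at 733 and 848 CPM and then 708 and 728 CPM. Of 10 tested thyroid hormone genes, which include regulators of the perinatal isoform change, 5 were positive and 5 negative, with a median of 0.02 and with 3 higher and 2 lower at an unadjusted p under 0.05. The thyroid hormone receptor Thra was at 98.9 and 110 CPM and then 119.6 and 108.6 CPM, and the corepressor Ncor1 was at 228.5 and 229 CPM and then 225.5 and 212 CPM.

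Genes next to the troponins on the chromosome did not pass the threshold either. Within 50 kb of a member, 13 other genes were tested (Bap1, Csrp1, Dnaaf3, Dnah1, Eps8l1, Gm28883, Lad1, Nisch, Phf7, Phlda3, Ppp1r12c, Sema3g and Stab1), 6 with a positive and 7 with a negative fold change. edgeR called 0 (smallest adjusted p = 0.248) and DESeq2, which gave no adjusted p for 4 of them, also called 0. At an unadjusted p under 0.05 there were 2 (Phlda3 lower and Phf7 higher), or 15.4% against 17.3% of all tested genes. Lad1, which lies between Tnni1 and Tnnt2, was at 3.70, 5.18, 5.36 and 10.5 CPM in the 4 libraries (log2 fold change 0.82, SE 0.37; edgeR adjusted p = 0.332). Dnaaf3 shares 86 exon bases with Tnni3 and was at 1.20 to 1.47 CPM, against 1494 to 1798 CPM for Tnni3. Nisch overlaps the Tnnc1 gene on the opposite strand with 0 shared exon bases.

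The likeness of profiles was measured as the distance between log2 CPM values over the 4 libraries, each gene centred on its own mean, among 7006 other genes with a mean of at least 20 CPM. The nearest gene was Pphln1 for Tnnc1 (distance 0.0172), Meis1 for Tnni1 (0.00995), Nfatc3 for Tnni3 (0.0186), Nhsl1 for Tnnt1 (0.0602) and Bcap29 for Tnnt2 (0.0165). The next were Man2c1 and Tial1, Dot1l and Ppm1f, Swi5 and Pja1, Flrt2 and Sirpa, and Lrch3 and C1d, in the same order of members. Among the members, Tnnc1, Tnni1 and Tnni3 lay closest to each other (0.116 to 0.139), Tnnt2 at 0.171 to 0.276 from them and Tnnt1 at 0.389 to 0.473 from all others. Such distances were common: Tnni1, its nearest fellow member, stood at place 363 in the order of genes by distance from Tnnc1.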

How the data were processed

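RNA-seq of P0 mouse hearts was measured in 4 libraries, 2 per genotype. The deposited values are raw read counts per Ensembl gene; HTSeq, DESeq 1.10.1 and the mm10 build are named, per the submitters' processing notes. For the aligner, gene annotation and strand setting, nothing is given in the sources used here. Identifiers were matched to GENCODE M21 (42462 of 43346), which also gave exon lengths. The members and gene lists were chosen with earlier results of these data known.

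Counts were filtered (filterByExpr), TMM-scaled and tested with edgeR 4.0.16 (robust quasi-likelihood, R 4.3.3), with Benjamini-Hochberg adjustment over 16009 genes and a threshold of 0.05; no sample was dropped. The code was checked on simulated counts. Alternatives were other scalings and filters, no robust estimation, DESeq2 1.42.0, limma-voom (limma 3.58.1), a replicate block and each library left out. Ratios were tested by exact two-sided permutation; 6 of the 8 were added after the data were seen. From each list, none of which had an edgeR call, the 2 genes with the highest mean CPM were named, as were the members, Mrtfa, Mrtfb, the fast troponins, tested genes within 50 kb and the 3 nearest profiles; other genes were named after their values were seen. RefSeq gave the promoters.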

Additional observations from a re-analysis of the deposited data

How the results depend on the processing

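In 13 alternatives for each of the 5 genes, 60 of 65 log2 fold changes kept their direction, 0 passed the threshold and 5 changed sign. Values on the log2 scale with 1 library left out ran from -0.203 to 0.0204 (Tnnc1), -0.34 to -0.0367 (Tnni1), -0.218 to -0.05 (Tnni3), -0.461 to 0.251 (Tnnt1) and -0.0243 to 0.182 (Tnnt2). For the ratios and the sum they ran from -0.123 to 0.0124 (Tnni1 to Tnni3), -0.428 to 0.0772 (Tnnt1 to Tnnt2), -0.119 to 0.00315 (troponin I to Tnnc1, per exon union) and -0.17 to 0.046 (summed level). The sign changed for Tnnc1 without double knockout library 2, for Tnnt1 without that library (0.251) or wild type library 2 (0.102), and for Tnnt2 without double knockout library 1. It changed for the Tnni1 to Tnni3 ratio without wild type library 1 (0.00473) or double knockout library 2, for the Tnnt1 to Tnnt2 ratio without wild type library 2 (0.00468) or double knockout library 2, for the troponin I to Tnnc1 ratio per exon union without wild type library 2 (0.00315; -0.00506 per principal transcript), and for the summed level without double knockout library 2. With library totals only, Tnnt1 was at 0.0181 and the summed level at 0.00857; with no length scaling the summed level was at 0.00246. The cause was not tested. edgeR called 12 genes of all tested, 1514 with no filter, 532 with DESeq2 in its place, and 2 to 2795 with 1 library left out (2 and 3 without wild type library 1 or 2, 2795 and 1364 when double knockout library 1 or 2 was left out).

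List medians that moved by more than the spread between replicates were, with library totals only, -0.00757 (kinases and phosphatases), 0.206 (splicing regulators), -0.0593 (transcription factors) and -0.156 (cardiomyocyte markers), and with the stricter filter -0.993 (fast troponins). With 1 library left out the list medians, most within that spread, ran from -0.218 to 0.0204 (members), -0.843 to -0.605 (fast troponins), -0.244 to -0.132 (filament partners), -0.16 to 0.147 (fetal partners), -0.471 to -0.179 (adult partners), -0.143 to -0.0266 (kinases and phosphatases), 0.0421 to 0.221 (splicing regulators), -0.108 to -0.0626 (transcription factors), -0.154 to 0.0579 (thyroid hormone genes), -0.258 to -0.171 (cardiomyocyte markers), -0.579 to -0.112 (skeletal muscle markers), 0.703 to 1.53 (atrial markers) and -0.0631 to 0.548 (conduction markers). The kinase and phosphatase median moved by more than the spread whichever library was left out. That of the splicing regulators did so for each library except double knockout library 2.

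With the replicate number as a block, edgeR called 2 genes and 0 of the 5 troponins. The deviations of same-numbered libraries correlated at -0.0965, so the numbers were not shown to pair the libraries; the block left the direction of each of the 5 genes as it was.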

Other observations

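Tnni3k, Klf9, Lmod2 and Myh7 are among the list genes with their highest or lowest value in double knockout library 2; these 4 were chosen after their values were seen. Tnni3k, a kinase named for its interaction with cardiac troponin I, was at 117 and 109 CPM in wild type libraries 1 and 2, at 160.3 CPM in double knockout library 1 and at 18.2 CPM in double knockout library 2. Its log2 fold change was -0.33 with an SE of 1.01 (edgeR adjusted p = 0.898). Klf9, a thyroid hormone responsive transcription factor, had 46.5 and 50.5 CPM in the wild type pair and 77.1 and 221 CPM in the double knockout pair. Lmod2, which lengthens thin filaments, had 214 and 163 CPM in the wild type pair and 258 and 617 CPM in the double knockout pair. Myh7 was also highest in library 2 of double knockout, at 5775 CPM. edgeR called 0 of the 4, against 0.075% of all tested genes. Klf9 and Lmod2 had an unadjusted edgeR p under 0.05, as did 17.3% of all tested genes. The edgeR adjusted p-values were 0.232 (Klf9), 0.271 (Lmod2) and 0.427 (Myh7) for the 3 that were higher. The share of all tested genes with their highest or lowest value in double knockout library 2 was not counted.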
